A study of Mus musculus with 36 samples.

Results

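The genes described here mark cortical interneurons and the machinery that makes and packages their transmitter, GABA. They are 9 genes listed by symbol: Gad1, Gad2, Slc32a1, Pvalb, Sst, Vip, Lhx6, Calb2 and Reln. The rule that lists them uses no measured value, though the genes were chosen with earlier results of these data known. All 9 were found among the 52636 genes of the deposited table of TPM (transcript abundance per unit of length, as a share of each library), and all 9 passed the filter on low values. The RNA was extracted from 1-mm punches taken on the right side of the anterior cingulate cortex (aCC) in female mice aged 8 to 11 weeks, and each mouse gave 1 library. The labels give the strain of every library as C57BL/6NTac-Brd1, WT mice included, and the study's methods name the deletion line C57BL/6NTac-Brd1tm1.2Arte/AborgMmucd. The mice were either wild type (WT) or heterozygous for a targeted deletion in Brd1 (Brd1+/-), whose product is a chromatin reader that scaffolds histone acetylation enzymes. They had been injected with saline (vehicle) or with 10 mg/kg of the tricyclic imipramine (IMN), and by the study's methods every group had been through a tail suspension test, an open field and a forced swim before the brains were taken. On vehicle there were 8 WT and 9 Brd1+/- libraries, and on IMN 10 and 9. The comparisons ask whether Brd1+/- mice differ from WT mice, whether IMN changes expression, and whether its effect depends on genotype.

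Inhibitory neurons make GABA from glutamate with glutamic acid decarboxylase, which exists as the products of Gad1 and Gad2, and load it into synaptic vesicles with the transporter encoded by Slc32a1. Cortical interneurons fall into classes that differ in their targets: parvalbumin cells (Pvalb) act on cell bodies and axons of pyramidal neurons, somatostatin cells (Sst) on their dendrites, and VIP cells (Vip), many of which also make calretinin (Calb2), largely on other interneurons. The transcription factor Lhx6 marks the lineage from the medial ganglionic eminence that gives rise to parvalbumin and somatostatin cells, and reelin (Reln) is secreted by neurogliaform cells and by some somatostatin cells. The 3 classes are therefore read apart below, gene by gene.

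Brd1 followed the labels. Its mean was 26.4 ± 3.03 TPM for WT and 16.8 ± 2.72 TPM for Brd1+/- mice on vehicle, and 23.3 ± 3.43 TPM for WT and 16.8 ± 2.102 TPM for Brd1+/- mice on IMN (SD, n as above), a difference of -0.54 on the log2 scale over both treatments (limma, adjusted p = 2.83e-05). Between the genotypes, the Brd1 difference was -0.64 on vehicle and -0.45 on IMN, with the smallest p of all genes tested in each pair. Brd1 was still not called in either pair (limma, adjusted p = 0.062 and 0.882). In these main fits the pair tests therefore missed the loss of the deleted gene itself, which only the pooled test called. The study, which used edgeR, reported Brd1 as the sole aCC gene that stayed significant after correction between the vehicle groups. All 8 genes of a list of excitatory neuron markers passed the filter, with a median of 1148 TPM for Slc17a7. Punches were not equal. The summed TPM of 10 oligodendrocyte genes ran from 192 to 2841 in WT vehicle, 240.2 to 1800.3 in Brd1+/- vehicle, 233 to 3570 in WT IMN and 229.7 to 3445 in Brd1+/- IMN. One library, Brd1+/- vehicle replicate 6, stood apart: it was the highest of 36 for 12 of 12 striatal genes, with Drd1 at 33.2 TPM (at most 11.7 elsewhere) and Adora2a, a gene of striatal projection neurons, at 30.1 TPM (at most 2.25 elsewhere). Striatal projection neurons are themselves GABAergic, so differences and lists that this library moved are also given without it. A second library, WT vehicle replicate 1, was the lowest of 36 for Vip, Calb2 and Reln. TPM keep no record of read depth, so errors below come from the spread between mice, and nothing was computed for counting error.

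In GENCODE M21 on GRCm38 all 9 are protein-coding genes. Gad1 (ENSMUSG00000070880) lies at chr2:70553072-70602014 on the plus strand. Gad2 (ENSMUSG00000026787) lies at chr2:22622205-22693874 on the plus strand. Slc32a1 (ENSMUSG00000037771) lies at chr2:158610767-158615748 on the plus strand. Pvalb (ENSMUSG00000005716) lies at chr15:78191114-78206400 on the minus strand. Sst (ENSMUSG00000004366) lies at chr16:23889573-23890958 on the minus strand. Vip (ENSMUSG00000019772) lies at chr10:5639218-5647617 on the plus strand. Lhx6 (ENSMUSG00000026890) lies at chr2:36081953-36105408 on the minus strand. Calb2 (ENSMUSG00000003657) lies at chr8:110137502-110168210 on the minus strand. Reln (ENSMUSG00000042453) lies at chr5:21884454-22344702 on the minus strand.

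The promoters of the neuropeptide members are shown because Sst and Vip are textbook targets of the cAMP-responsive factor CREB, as are many immediate-early genes. Of 13 immediate-early genes, 3 were called lower for IMN over both genotypes, where 0.274% of all genes were called. Sst and Vip were not called, at -0.04 and 0.04 on the log2 scale. A part of CREB in any difference was not tested. RefSeq (GRCm38.p6) held a promoter for 8 of the members; all but Calb2 had one. In the 250 bases before each start, the whole cAMP response element TGACGTCA was found in Sst alone among these members, and in 1.55% of 32851 promoters. The shorter core TGACG, read on both strands and contained in the whole element, was found without the whole element in Gad2 and Vip; 17.8% of promoters held it in some form. The stretches follow 5′ to 3′ with these letters and, in Vip, a TATAAA box in capitals.
Sst, chr16:23890874-23890903, minus strand, 59 to 30 bases before the RefSeq start and inside the first exon of a longer GENCODE transcript: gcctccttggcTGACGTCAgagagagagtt
Vip, chr10:5639098-5639217, plus strand, the 120 bases before the start: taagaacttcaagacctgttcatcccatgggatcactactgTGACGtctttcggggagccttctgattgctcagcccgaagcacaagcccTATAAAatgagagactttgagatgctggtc
These letters are a description of the sequence and do not show that a factor was bound.

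Somatostatin was by far the most abundant member, at 594.2 ± 89.8 TPM (SD, n = 36), followed by Gad1 at 146 ± 17.8 TPM and Vip at 83.5 ± 23.2 TPM. Sst exceeded Gad1, and Gad1 exceeded Vip, in 36 of 36 libraries. Below them the order was not fixed. Pvalb (64.9 ± 47.5 TPM) was under Vip in 26 of 36 libraries and above Gad2 (59.0 ± 7.83 TPM) in only 16, and Gad2 lay above Slc32a1 (46.7 ± 9.92 TPM) in 33. Reln (19.6 ± 7.97 TPM), Calb2 (14.9 ± 5.13 TPM) and Lhx6 (14.4 ± 3.63 TPM) closed the order, with Reln above Calb2 in 27 libraries and Calb2 above Lhx6 in 23, so that neighbours from Vip to Gad2 and from Reln to Lhx6 were within their spread.

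The members differed in how much they varied between mice. The coefficient of variation over 36 libraries was 12.2% for Gad1, 13.3% for Gad2 (10.7% without Brd1+/- vehicle replicate 6), 15.1% for Sst and 21.3% for Slc32a1 (15.2% without that library). It was 25.2% for Lhx6, 27.8% for Vip, 34.3% for Calb2, 40.7% for Reln and 73.2% for Pvalb. Parvalbumin thus ranged from 8.30 to 215 TPM in tissue where somatostatin stayed between 371 and 763 TPM.

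**Figure D1:**
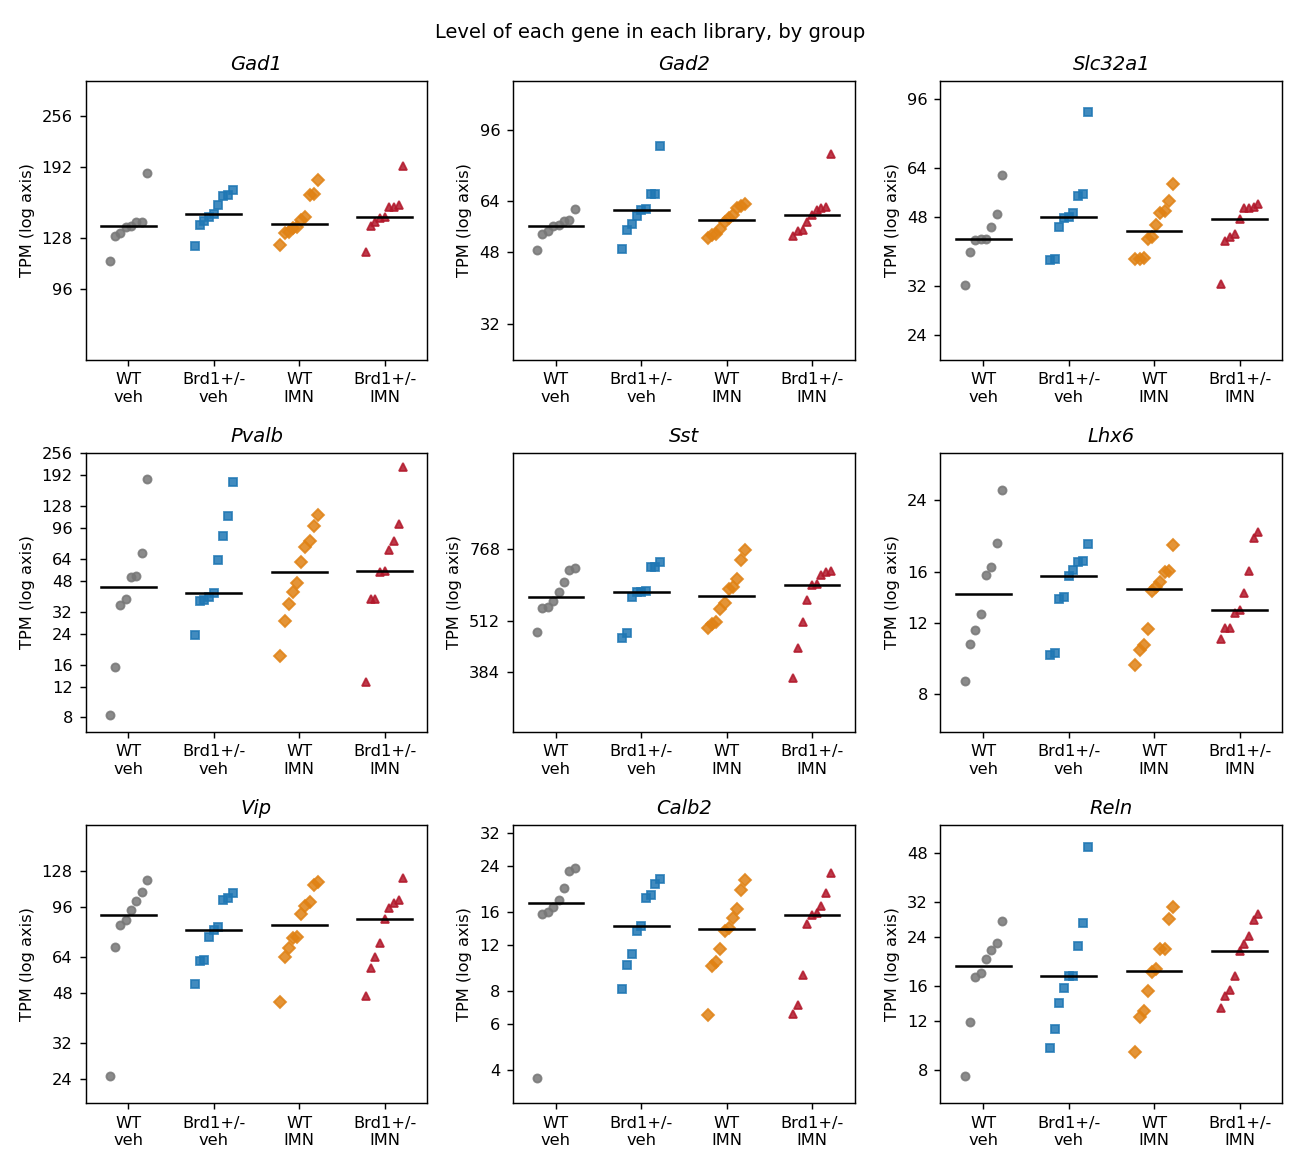
TPM of each gene (vertical log axis) in each of 36 libraries, sorted within the 4 groups (horizontal; veh, vehicle); black bars are group medians. Group ranges overlap for every gene, and the points of Pvalb spread from 8.30 to 215 TPM while those of Sst stay between 371 and 763 TPM.

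None of the 9 members passed the test in any comparison. At an adjusted p under 0.05 (limma, adjusted over 25572 genes) 0 members were called between Brd1+/- and WT under vehicle (background: 0% of genes called), between Brd1+/- and WT under IMN (0%), between IMN and vehicle in Brd1+/- mice (0.00782%) or in WT mice (0%), between IMN and vehicle over both genotypes (0.274%, 70 genes, 23 higher and 47 lower), between Brd1+/- and WT over both treatments (0.00391%, Brd1 itself), or for the interaction (0%). At an unadjusted p under 0.05 the members called were likewise 0 of 9 in each of the 7 comparisons, where all genes gave 3.75%, 3.23%, 5.52%, 6.6%, 9.38%, 3.62% and 3.2% in the order just given. Brd1 itself was not called in either pair of genotypes, so the absence of calls there cannot alone exclude a difference of its size. On vehicle the Brd1 difference was -0.64 on the log2 scale. The 95% intervals were -0.07 to 0.28 for Gad1, -0.03 to 0.34 for Gad2 and -0.11 to 0.50 for Slc32a1. For Sst, Vip and Lhx6 they were -0.19 to 0.21, -0.53 to 0.51 and -0.36 to 0.40. All of these stopped short of that size, while the intervals of Pvalb, Calb2 and Reln reached it. Under IMN, where Brd1 differed by -0.45, the members divided in the same way. For each of the 9 members the ranges overlapped in each of the 4 pairs of groups. In bulk tissue, fewer cells of a class and less RNA per cell cannot be told apart, so these are differences in the level of each RNA in the punch.

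Gad1 and Gad2, the GABA synthesis genes, had the narrowest intervals. Gad1, which supplies most of the enzyme for GABA in cell bodies, ran from 112 to 185 TPM in WT vehicle (median 137), 123 to 168 in Brd1+/- vehicle (median 147), 123 to 178 in WT IMN (median 139) and 118 to 193 in Brd1+/- IMN (median 144). The 4 groups lay on top of each other. Over both genotypes the IMN difference was 0.03 on the log2(TPM + 0.5) scale (95% interval -0.09 to 0.14), a ratio of 1.02 with limits of 0.940 and 1.10. The difference of Brd1+/- from WT over both treatments was 0.07 (-0.05 to 0.18).

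Gad2, whose product is concentrated at nerve terminals, had the smallest p of the members in any comparison. It ran from 48.6 to 61.2 TPM in WT vehicle (median 55.7), 48.9 to 87.2 in Brd1+/- vehicle (median 60.7), 51.8 to 62.9 in WT IMN (median 57.5) and 52.7 to 83.6 in Brd1+/- IMN (median 59.4). The 2 highest of 36 libraries, both Brd1+/- (vehicle replicate 6 and IMN replicate 3), lay well above the rest. The range of the other Brd1+/- libraries overlapped that of WT without lying wholly inside it. Over both treatments Gad2 was 0.11 log2 higher in Brd1+/- than in WT mice (95% interval -0.0046 to 0.22, limma p = 0.0596, adjusted p = 0.999), and a permutation of the genotypes within treatments gave p = 0.0544. Over single-library omissions it ran from 0.08 (without Brd1+/- vehicle replicate 6) to 0.13 (without Brd1+/- vehicle replicate 7). The unadjusted p was under 0.05 in 13 refits, 9 of them omissions of 1 library and the others median-ratio scaling (0.0390), quantile normalization (0.0358), array weights (0.0467) and the replicate block (0.0457), and each adjusted p was at least 0.990. The IMN difference was 0.01 (-0.11 to 0.12).

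Slc32a1, the vesicular GABA transporter, ran from 32.2 to 61.3 TPM in WT vehicle (median 42.1), 37.2 to 88.9 in Brd1+/- vehicle (median 48.1), 37.4 to 58.2 in WT IMN (median 44.3) and 32.3 to 51.6 in Brd1+/- IMN (median 47.4). The value of 88.9 TPM belonged to Brd1+/- vehicle replicate 6, the library with the striatal genes. Over both treatments Brd1+/- mice were 0.10 log2 above WT mice (-0.08 to 0.28), and 0.05 above them without that library. The IMN difference in Brd1+/- mice was -0.14 (-0.42 to 0.14; exact permutation p = 0.385) and came to -0.03 without it.

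**Figure D2:**
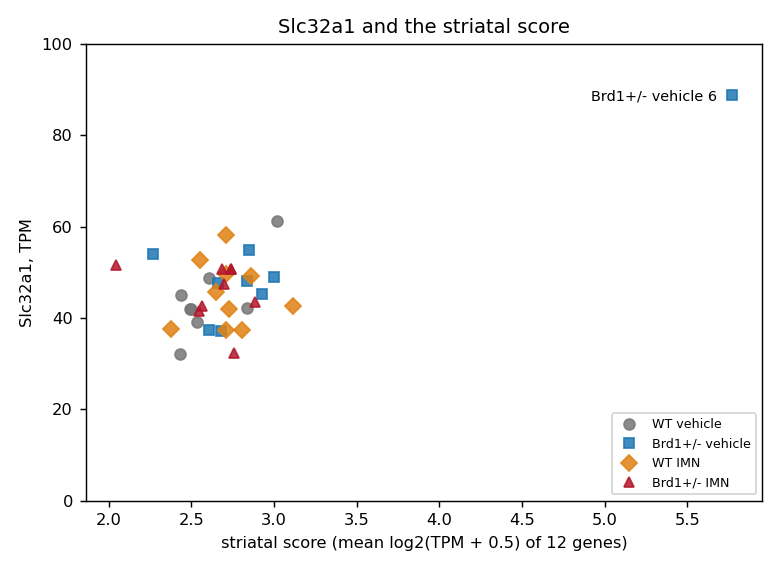
Slc32a1 in TPM (vertical) against the striatal score, the mean log2(TPM + 0.5) of 12 striatal genes (horizontal), 1 point per library, with the 4 groups marked by shape. Brd1+/- vehicle replicate 6 sits alone at 88.9 TPM and a score of 5.77.

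Parvalbumin, a calcium-binding protein of fast-spiking interneurons, was the member for which the data say least about genotype and drug. It ran from 8.30 to 182 TPM in WT vehicle (median 44.5), 23.5 to 176 in Brd1+/- vehicle (median 40.8), 17.9 to 115 in WT IMN (median 54.2) and 12.8 to 215 in Brd1+/- IMN (median 54.5). Each group held both low and high punches. Under vehicle the Brd1+/- mean was 0.51 log2 above the WT mean (95% interval -0.54 to 1.55; exact permutation p = 0.370). That value was 0.82 without WT vehicle replicate 1 and 0.20 without WT vehicle replicate 4, the libraries at 182 and 8.30 TPM. The IMN difference was 0.40 in WT mice (-0.58 to 1.38; exact permutation p = 0.451), 0.03 in Brd1+/- mice (-0.89 to 0.95; exact permutation p = 0.943) and 0.21 over both genotypes (-0.46 to 0.89). Without WT vehicle replicate 4 the WT and pooled values were 0.085 and 0.058, and without WT vehicle replicate 1 they were 0.71 and 0.36. In Brd1+/- mice the value was -0.20 without Brd1+/- IMN replicate 6 and 0.30 without Brd1+/- IMN replicate 3. With striatal and oligodendrocyte scores as covariates the pooled difference was -0.15. The interaction, at -0.36 (-1.72 to 1.00), was -0.68 without WT vehicle replicate 1 and -0.05 without WT vehicle replicate 4.

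Sst and Lhx6 stood for the somatostatin class and the shared lineage. Sst, the neuropeptide of dendrite-targeting interneurons, ran from 482 to 693 TPM in WT vehicle (median 587), 465 to 716 in Brd1+/- vehicle (median 603), 492.7 to 763 in WT IMN (median 591) and 371 to 678 in Brd1+/- IMN (median 629). Its differences were -0.04 for IMN over both genotypes (-0.20 to 0.11) and -0.03 for Brd1+/- over both treatments (-0.19 to 0.12), so that these intervals reach at most a ratio of 0.871 or 1.09. The lowest library, Brd1+/- IMN replicate 6 at 371 TPM, was also the highest for Pvalb at 215 TPM. Lhx6 ran from 8.62 to 25.4 TPM in WT vehicle (median 14.2), 10.0 to 18.7 in Brd1+/- vehicle (median 15.6), 9.44 to 18.6 in WT IMN (median 14.5) and 10.9 to 20.1 in Brd1+/- IMN (median 12.9). Its differences were -0.06 for IMN (-0.29 to 0.17) and 0.05 for Brd1+/- (-0.19 to 0.28).

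Vip and Calb2, which mark interneurons that inhibit other interneurons, had 0 calls as well. Vip ran from 24.6 to 119.9 TPM in WT vehicle (median 90.3), 51.6 to 108 in Brd1+/- vehicle (median 79.9), 44.5 to 118 in WT IMN (median 83.1) and 46.7 to 121 in Brd1+/- IMN (median 86.9). Its differences were 0.04 for IMN (-0.28 to 0.35) and -0.03 for Brd1+/- (-0.34 to 0.29). Calb2 ran from 3.74 to 23.6 TPM in WT vehicle (median 17.3), 8.18 to 21.5 in Brd1+/- vehicle (median 14.1), 6.52 to 21.2 in WT IMN (median 13.8) and 6.58 to 22.6 in Brd1+/- IMN (median 15.7). WT vehicle held both the lowest and the highest Calb2 library. Its IMN difference was -0.17 over both genotypes (-0.56 to 0.21) and -0.22 in WT mice (-0.81 to 0.37; exact permutation p = 0.504). Without WT vehicle replicate 1, at 3.74 TPM, these were -0.30 and -0.49, the latter with an adjusted p of 0.349 (limma). With striatal and oligodendrocyte scores as covariates the WT value was 0.00040. The Brd1+/- difference of Calb2 was -0.05 (-0.43 to 0.33) over both treatments, and its interaction was 0.09 (-0.68 to 0.87), and without WT vehicle replicate 1 these were -0.17 and 0.37.

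Reelin, an extracellular glycoprotein, ran from 7.61 to 27.3 TPM in WT vehicle (median 19.0), 9.62 to 50.5 in Brd1+/- vehicle (median 17.3), 9.26 to 30.7 in WT IMN (median 18.2) and 13.3 to 28.9 in Brd1+/- IMN (median 21.3). The value of 50.5 TPM, in Brd1+/- vehicle replicate 9, was the highest of 36. Its differences were 0.09 for IMN (-0.27 to 0.44) and 0.13 for Brd1+/- (-0.23 to 0.48). Without that library they were 0.17 and 0.045, and without WT vehicle replicate 1 the IMN difference was 0.0098. Under IMN, Brd1+/- mice were 0.17 above WT mice (-0.25 to 0.58; exact permutation p = 0.451), and 0.065 above them without WT IMN replicate 7. In Brd1+/- mice its IMN difference was 0.13 (-0.39 to 0.64), which was 0.31 without Brd1+/- vehicle replicate 9 and 0.015 without Brd1+/- vehicle replicate 7.

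**Figure D3:**
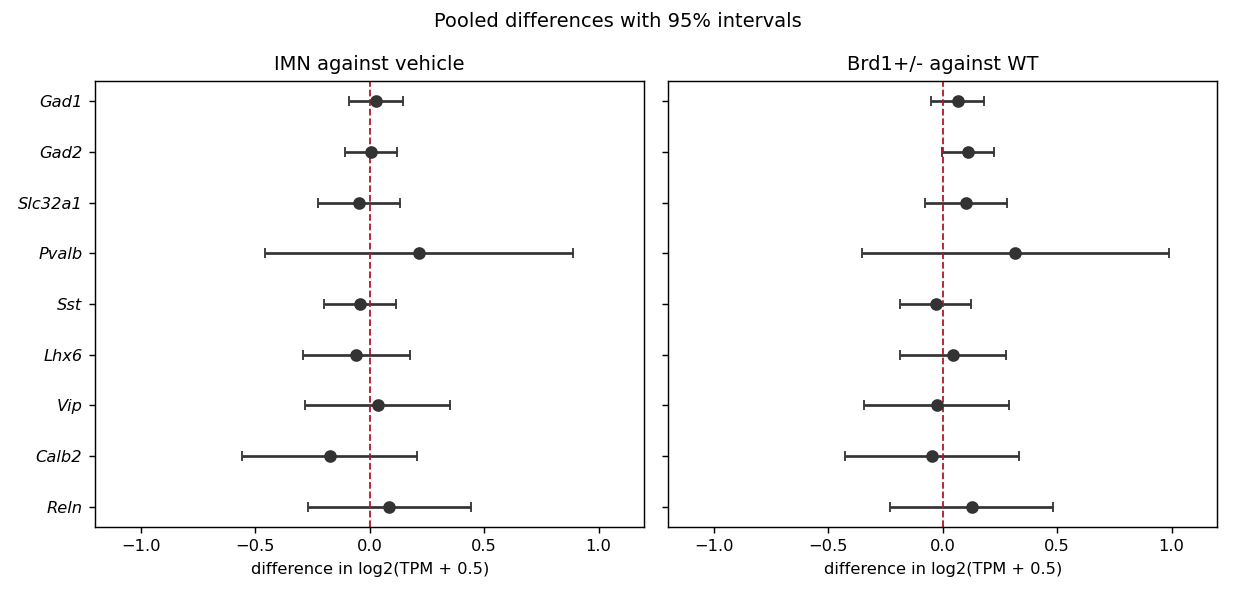
Differences in log2(TPM + 0.5) (horizontal) with 95% intervals for each gene, for IMN against vehicle over both genotypes (left) and Brd1+/- against WT over both treatments (right), from limma on 36 libraries. Every interval contains 0, with Pvalb the widest (-0.46 to 0.89 for IMN) and Gad2 among the narrowest (-0.11 to 0.12).

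Counts of direction over the members were not tested. Brd1+/- means were higher than WT means under vehicle for 7 of 9 members (median 0.08 beside -0.018 over all genes, of which 43.7% were higher) and under IMN for 6 (0.03 beside 0.0052; 52.0%). IMN means were higher than vehicle means for 7 members in WT mice (0.04 beside -0.014; 45.5%) and for 3 in Brd1+/- mice (-0.03 beside 0.0082; 52.5%). For IMN over both genotypes 5 of 9 had a higher mean and 4 a lower one, with a median difference of 0.01 beside -0.0023 over all genes tested. For Brd1+/- over both treatments 6 were higher and 3 lower, with a median of 0.07 beside -0.0050. The IMN effects of the 2 genotypes share no libraries, but the pooled effects and the pairs share theirs.

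Within groups, the balance between interneuron genes varied from mouse to mouse. After the group mean was removed from each gene, 117 relations were computed over the 36 libraries: 36 between members and 81 between members and scores of 9 marker lists. Libraries share a fixed total, so a gene that takes a larger share lowers the others, and both genes of a pair come from the same punch. Of the member pairs, 16 of 36 had an adjusted permutation p under 0.05 for Spearman's rho (adjusted over the 117 relations), 7 positive and 9 negative. Each of the 16 kept the sign of Pearson's r in all 4 groups, and also with both libraries named above left out.

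Parvalbumin varied together with Gad1 and Slc32a1. Pvalb and Gad1 gave r = 0.78 and rho = 0.78 (permutation p = 1e-05 for each, the smallest 100000 permutations can give; adjusted p = 9.75e-05 and 0.000195), with r from 0.69 to 0.92 within groups and 0.68 without the 2 libraries farthest from the median of Gad1. Pvalb and Slc32a1 gave r = 0.65 and rho = 0.73 (permutation p = 1e-05 for each; adjusted p = 9.75e-05 and 0.000195), with r = 0.85 once Brd1+/- vehicle replicate 6 was left out. Gad1 and Slc32a1 gave r = 0.67 and rho = 0.75 (permutation p = 4e-05 and 2e-05; adjusted p = 0.000246 and 0.000213), and r = 0.63 without the 2 farthest libraries.

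Gad2 had no such relation. With Pvalb it gave r = -0.21 and rho = -0.01 (permutation p = 0.230 and 0.958; adjusted p = 0.309 and 0.974), with Gad1 r = 0.22 and rho = 0.33 (permutation p = 0.200 and 0.0605; adjusted p = 0.278 and 0.104). Gad2 and Sst each had 0 member pairs past the threshold, against 6 for Slc32a1 and for Calb2 and 5 for Pvalb and for Vip. Within groups, r between Gad2 and Pvalb ran from -0.60 to 0.64.

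Vip and Calb2 were related inversely to parvalbumin and closely to each other. The inverse relations were weakest in Brd1+/- vehicle, with r = -0.06 for Pvalb and Vip and -0.29 for Pvalb and Calb2. They were strongest in Brd1+/- IMN, at -0.75 and -0.84. WT vehicle gave -0.51 and -0.73, and WT IMN -0.62 and -0.82. Each group held few libraries, and differences of r between groups were not tested. Vip and Calb2 varied together, with r = 0.90 and rho = 0.80 (permutation p = 1e-05 for each; adjusted p = 9.75e-05 and 0.000195), r between 0.87 and 0.92 within groups and 0.80 without the 2 farthest libraries. Calb2, out of 17716 genes whose mean reached 1 TPM, ranked 16 by rho with Vip. Pvalb and Calb2 gave r = -0.70 and rho = -0.63 (permutation p = 1e-05 and 0.0001; adjusted p = 9.75e-05 and 0.000688), and r = -0.68 without the 2 farthest libraries. Pvalb and Vip gave r = -0.51 and rho = -0.41 (permutation p = 0.00474 and 0.0184; adjusted p = 0.0129 and 0.0423), and r = -0.42 without the 2 farthest. Vip and Lhx6 gave r = -0.67 and rho = -0.56 (permutation p = 4e-05 and 0.00059; adjusted p = 0.000246 and 0.00266), and r = -0.53 without the 2 farthest. Lhx6 also passed with Calb2 (rho = -0.47, adjusted permutation p = 0.0167) and Slc32a1 (rho = 0.44, adjusted permutation p = 0.0300). It did not pass with the classes of its own lineage, Pvalb (rho = 0.27, adjusted permutation p = 0.201) and Sst (rho = 0.16, adjusted permutation p = 0.427).

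Pvalb varied more than Vip (coefficient of variation 73.2% against 27.8%). The ratio of Pvalb to Vip, given as a description, reflects both spreads. It ran from 0.0960 to 7.40 in WT vehicle (median 0.434), 0.231 to 1.82 in Brd1+/- vehicle (median 0.768), 0.152 to 2.58 in WT IMN (median 0.631) and 0.106 to 3.68 in Brd1+/- IMN (median 0.622). WT vehicle replicate 1 held the highest ratio, with Pvalb at 182 TPM and Vip at 24.6 TPM. Brd1+/- vehicle replicate 7 was an exception to the inverse relation, with Pvalb at 176 TPM and Vip at 108 TPM, both the highest of its group. The ratio of Calb2 to Vip, by contrast, stayed between 0.112 and 0.340 over all 36 libraries.

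**Figure D4:**
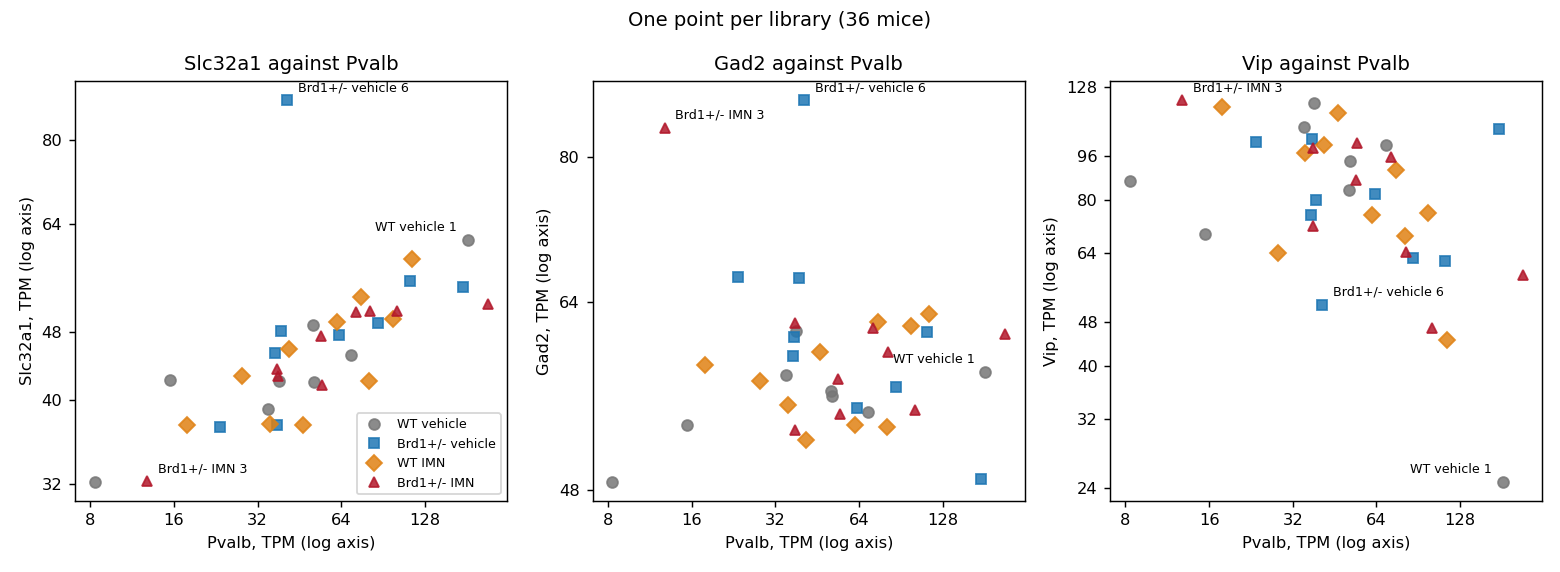
Slc32a1 (left), Gad2 (middle) and Vip (right) in TPM (vertical log axis) against Pvalb in TPM (horizontal log axis), 1 point per library, with the 4 groups marked by shape. Slc32a1 climbs with Pvalb except in Brd1+/- vehicle replicate 6 (88.9 TPM), Gad2 shows no trend, and Vip runs from 121 TPM in Brd1+/- IMN replicate 3 to 24.6 TPM in WT vehicle replicate 1.

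Scores of some lists of tissue markers moved with the same axis, and others did not pass. With Pvalb the deep-layer score gave rho = -0.09 (adjusted permutation p = 0.682) and the astrocyte score rho = -0.29 (adjusted permutation p = 0.165). The excitatory neuron score rose with Pvalb (rho = 0.41, adjusted permutation p = 0.0423) and with Slc32a1 (rho = 0.62, adjusted permutation p = 0.00117). Septal, upper-layer and immediate-early scores fell as Pvalb rose (rho = -0.50, -0.42 and -0.43, adjusted permutation p = 0.0105, 0.0373 and 0.0331). The axis was therefore not confined to interneuron genes. The oligodendrocyte score rose with Pvalb (r = 0.61, rho = 0.56, permutation p = 0.00017 and 0.00094; adjusted p = 0.000829 and 0.00379) and with Slc32a1 (r = 0.68, rho = 0.68, permutation p = 2e-05 and 6e-05; adjusted p = 0.00018 and 0.000439), and fell as Vip rose (r = -0.76, rho = -0.79, permutation p = 1e-05 for each; adjusted p = 9.75e-05 and 0.000195). Without the 2 farthest libraries these r were 0.51, 0.63 and -0.75. The score of 6 upper-layer genes rose with Vip (r = 0.84, rho = 0.79, permutation p = 1e-05 for each; adjusted p = 9.75e-05 and 0.000195; r = 0.73 without the 2 farthest). The microglia score fell as Pvalb rose (r = -0.72, rho = -0.69, permutation p = 1e-05 and 2e-05; adjusted p = 9.75e-05 and 0.000213; r = -0.68 without the 2 farthest). Whether the place of the punch sets the balance of the classes was not tested. The striatal score behaved differently: its r of 0.56 with Slc32a1 came to -0.05, and its r of 0.56 with Gad2 to 0.10, without the 2 farthest libraries, one of which was Brd1+/- vehicle replicate 6 in both cases, so these relations rest on those libraries.

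**Figure D5:**
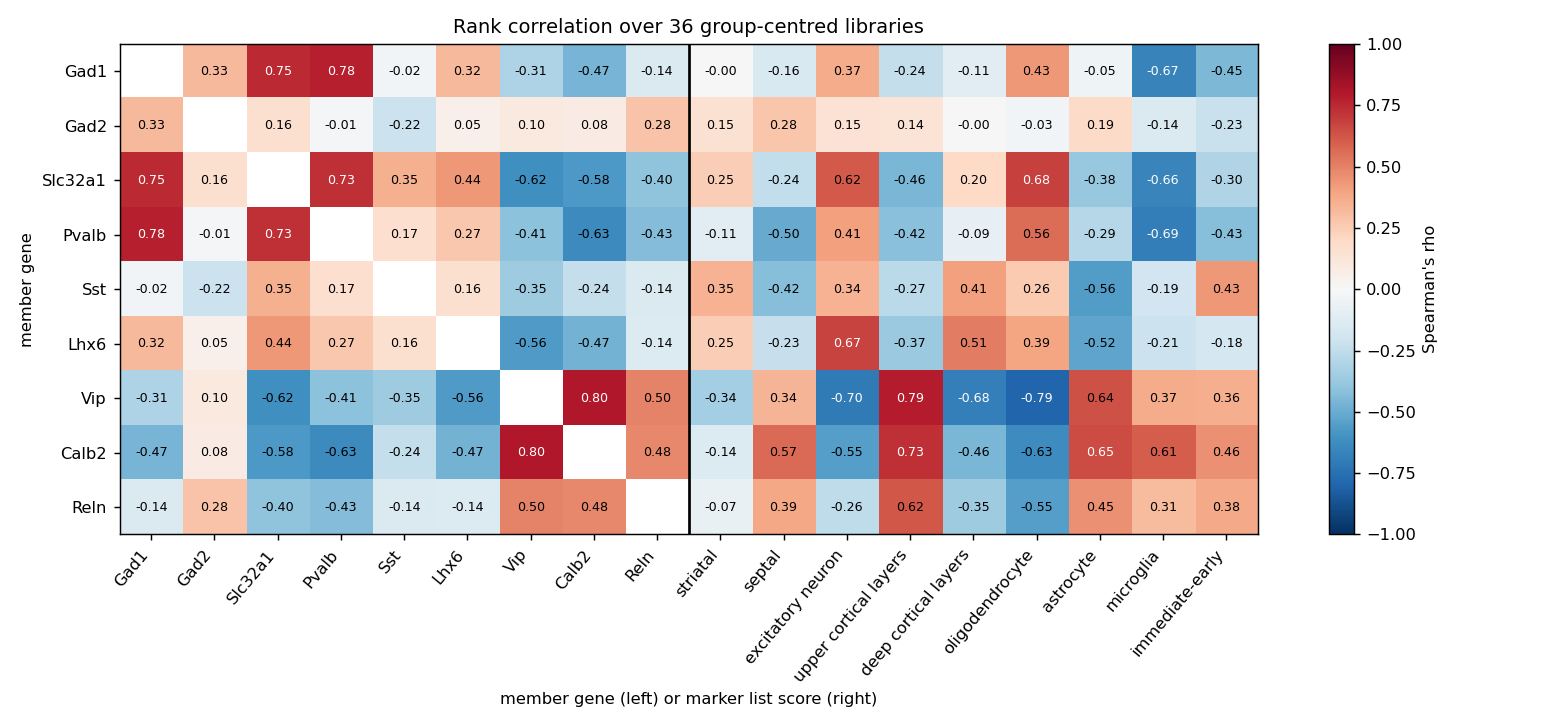
Spearman's rho over 36 group-centred libraries (colour and printed value) between each member gene (rows) and the other members (left of the line) or the scores of 9 marker lists (right). Gad1, Slc32a1 and Pvalb form a positive block (0.73 to 0.78), Vip and Calb2 another (0.80), and Gad2 has no value beyond 0.33.

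The 3 genes most like each member were taken by rho over the same 36 libraries and 17716 genes; Calb1 is also in the upper-layer list. For Pvalb they included Vamp1, a vesicle fusion protein (0.96), and Fndc5 (0.96). For Vip they were the transcription factor Neurod1 (0.84), the calcium-binding protein gene Calb1 (0.83) and Evc2 (0.83), and for Sst they were Maea (0.79), the related neuropeptide Cort (0.72) and Zyx (0.72). For Gad1 they were Cntnap1, a protein of axonal paranodes (0.85), Parva (0.84) and the neurofilament Nefm (0.84). Slc32a1 had Scrt2 (0.89), the sodium channel subunit Scn4b (0.88) and Got2 (0.87). Gad2 had lower values, for Pou3f4 (0.65), Zscan26 (0.64) and Mcm9 (0.59). Lhx6 had Mtmr7 (0.72), Unc5a (0.71) and Grip2 (0.71), Calb2 had Nos3 (0.85), Slc22a6 (0.85) and Olfml3 (0.85), and Reln had Dock4 (0.83), Itga4 (0.80) and 2610507B11Rik (0.80). Of the 27 genes so chosen, 14 stayed among the 3 likest without Brd1+/- vehicle replicate 6, and 10 when Pearson's r replaced rho. Slc32a1 and Calb2 kept 0 of their 3 without that library, and Vamp1 and Fndc5 kept values of 0.96 and 0.96 with Pvalb.

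Lists of related genes were read around the members. Of 15 interneuron transcription factors, 1 was called lower and 0 higher for IMN over both genotypes, where 0.274% of all genes were called. The counts were 1 and 0 also without Brd1+/- vehicle replicate 6, and 0 were called for Brd1+/- over both treatments. For IMN 11 had a lower mean and 4 a higher one (median -0.09, and -0.04 without that library), with Dlx5, named after its value was seen, at -0.32 (adjusted p = 0.240; -0.24 without the library). For Brd1+/-, Dlx6 had the smallest p, at 0.27 (adjusted p = 0.999; 0.19 without the library), and Brd1+/- vehicle replicate 6 was the highest of 36 for 8 of the 15 genes.

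Of the class markers, 0 of 8 parvalbumin-class, 0 of 8 somatostatin-class, 0 of 8 VIP-class and 0 of 6 Lamp5 and neurogliaform genes passed in either pooled comparison. For IMN the medians were 0.06, -0.09, -0.10 and 0.03, and for Brd1+/- they were 0.08, -0.07, -0.05 and -0.0049. The smallest p in each list for IMN belonged to Cpne5 (-0.36, adjusted p = 0.491), the opioid peptide precursor Pdyn (-0.32, adjusted p = 0.523), the stress peptide gene Crh (-0.12, adjusted p = 0.785) and Egln3 (0.04, adjusted p = 0.934). For Brd1+/- it belonged to Cpne5 (-0.21), Pdyn (-0.17), the enkephalin precursor Penk (0.33) and Lamp5 (0.15), each with an adjusted p of 0.999. Penk reached 419 TPM in Brd1+/- vehicle replicate 6, against at most 84.3 TPM in the rest of that group, and its difference was 0.16 without that library.

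Genes that clear and break down GABA gave 0 of 6 calls, with the transporter Slc6a11 at -0.09 for IMN (adjusted p = 0.605) and Slc6a12 at 0.17 for Brd1+/- (adjusted p = 0.999) having the smallest p. The reelin receptors and adaptors gave 0 of 5, with Crk at -0.23 for IMN (adjusted p = 0.644) and the receptor Vldlr at 0.26 for Brd1+/- (adjusted p = 0.999). The perineuronal net, the matrix that surrounds parvalbumin cells, gave 0 of 7. Its proteoglycan Ncan was -0.24 for IMN (adjusted p = 0.137), and its link protein Hapln1 was -0.30 for IMN (adjusted p = 0.357) and -0.31 for Brd1+/- (adjusted p = 0.999). Hapln1 ran from 6.89 to 21.0 TPM in WT vehicle, 9.42 to 17.9 in Brd1+/- vehicle, 8.26 to 19.2 in WT IMN and 6.47 to 10.6 in Brd1+/- IMN, and the 4 ranges overlapped.

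Lists of other cells and states stood as follows beside these results for IMN over both genotypes. Immediate-early genes were lower in 13 of 13, with 3 called (0.274% of all genes were) and a median of -0.42. Oligodendrocyte genes were higher in 10 of 10, with 0 called and a median of 0.41. The medians of the striatal (-0.15), septal (-0.11), upper-layer (-0.16), deep-layer (-0.02), excitatory (-0.02), astrocyte (-0.01) and microglia (-0.04) lists came with 0 calls. Without Brd1+/- vehicle replicate 6 the striatal, septal and deep-layer medians were -0.02, -0.04 and 0.05, and the oligodendrocyte median was 0.52. For Brd1+/- over both treatments 0 genes of these 9 lists were called. The part of these lists in the members' differences was not tested beyond the covariate fit given above.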

How the data were processed

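The authors sequenced RNA from 36 aCC punches (BGISEQ-500, single-end reads), trimmed reads with Trimmomatic, aligned them to GRCm38 with HISAT2 2.1.0 and quantified genes with StringTie 1.3.4. They deposited TPM per gene and library, which hold no read depth; column totals ran from 999727 to 999889.

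Groups came from the labels. The 25572 genes that reached 0.1 TPM in 8 or more libraries were fitted on log2(TPM + 0.5), which understates changes of low genes, with limma 3.58.1 in R 4.3.3 (intensity trend, two-sided, Benjamini-Hochberg adjustment). Pairs used their own libraries, and pooled effects and the interaction used all 36. Members also had two-sided permutation tests (scipy 1.17.1), exact for pairs and with 100000 draws otherwise. The fit was tested on simulated data. The labels name no batch.

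Members and lists were chosen with earlier results of these data known. Also named were Brd1, list genes called, the gene with the smallest p per list and pooled effect, and the 3 genes likest each member; some genes chosen by this rule are not reported here. Drd1, Adora2a, Slc17a7, Dlx5, the single libraries and the ratios were chosen after values were seen. Same-numbered libraries mostly did not deviate together (r over 0.1 in 0 of 8, 2 of 9, 0 of 9 and 1 of 8 pairs, at most 0.32). Low values of r cannot show whether the numbers pair mice. The study matched WT and Brd1+/- mice by litter, and litter did not enter the fits.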

Additional observations from a re-analysis of the deposited data

Results flagged for a closer look

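Of 36 combinations of gene and group, 6 held a library whose gap to its nearest neighbour was large for the range of its group by Dixon's criterion on log2 values. Chance flags about 1 group in 20. Of the 6, 3 belonged to WT vehicle replicate 1, which was highest of its group for Gad1 (185.3 TPM, next 140.4) and lowest for Vip (24.62 TPM, next 69.32) and Calb2 (3.743 TPM, next 15.7). In Brd1+/- vehicle, replicate 6 was highest for Slc32a1 (88.86 TPM, next 54.9). In Brd1+/- IMN, replicate 3 was highest for Gad2 (83.6 TPM, next 62.0) and lowest for Slc32a1 (32.26 TPM, next 41.6).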

How the results depend on the processing

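The 9 members had 0 calls at an adjusted p under 0.05 in each refit under another setting or without a library. Of 2250 refitted differences 186 changed sign, and 17 had an unadjusted p under 0.05 (limma), 14 of them for Gad2, with 0.349 the smallest adjusted p. Counted by difference, 37 of 63 changed sign in at least 1 refit, with sizes of up to 0.22 in the main fit. TPM hold no depth, so low genes could not be weighted by it. Causes of the changes below were not tested.

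For Brd1+/- IMN against Brd1+/- vehicle, with 2 genes called, 0 were called with a pseudocount of 0.1 or 1, a mean filter of 1 TPM, quantile normalization or the replicate block, and 1 with no filter, median-ratio scaling, array weights, covariates (striatal and oligodendrocyte scores) or one fit to all libraries; leaving out 1 library gave 0 to 1. For Brd1+/- vehicle against WT vehicle, with 0 called, 1 was called with a mean filter of 1 TPM, median-ratio scaling, quantile normalization, covariates or one fit, and 0 to 2 without 1 library. For IMN over both genotypes, with 70 called, the counts were 191 with array weights, 37 with the replicate block, 164 without both Brd1+/- vehicle replicate 6 and WT vehicle replicate 1 (chosen after seeing the data), and 35 (without WT vehicle replicate 3) to 170.0 (without WT vehicle replicate 1) with 1 library out. For Brd1+/- over both treatments, with 1 called, it was 2 with array weights or without both libraries, and 1 to 3 without 1 library. For WT IMN against WT vehicle, with 0 called, it was 0 to 32, the latter without WT vehicle replicate 1.

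Signs turned for members whose intervals contain 0. With quantile normalization Sst was 0.0031 for IMN and 0.0047 for Brd1+/-. With array weights Gad2 was -0.012 and Vip -0.035 for IMN, and Pvalb -0.029 for Brd1+/- under IMN. With covariates Gad1 was -0.0071 and Pvalb -0.15 for IMN, Vip 0.023 for Brd1+/-, Calb2 0.038 for Brd1+/- under vehicle, 0.00040 for IMN in WT mice and -0.049 for the interaction, and Pvalb -0.37 for IMN in Brd1+/- mice. With the replicate block Vip was -0.0063 for IMN. Without both libraries Slc32a1 was 0.040, Vip -0.12 and Lhx6 0.010 for IMN. Leaving out 1 library gave, for IMN, Gad2 -0.021 to 0.039, Slc32a1 -0.079 to 0.0067 and Vip -0.078 to 0.083; for Brd1+/-, Calb2 -0.17 to 0.011, Sst -0.053 to 0.0082 and Vip -0.13 to 0.023; under IMN, Pvalb -0.091 to 0.41 and Sst -0.11 to 0.0031; for IMN in Brd1+/- mice, Pvalb -0.20 to 0.30; and for the interaction, Calb2 -0.012 to 0.37. Whether the replicate numbers pair mice is not known, and the block called 0 members.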
